A study of Mus musculus with 15 samples.

Results

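E7.1 and E6.1, both Foxp1-edited lines of the mouse B-cell lymphoma line A20, were compared gene by gene, with 3 libraries of each. A20 is an established BALB/c line. E6.1 (CRISPR E6 clone 1) carries a mutation in *Foxp1* exon 6, and E7.1 (CRISPR E7 clone 1) carries one in exon 7. Each line was grown from a single sorted cell, so the edited exon cannot be told apart from anything else in which the founding cells differed. Both were grown in standard culture, and each was used in the study's mouse experiments. The series also holds the unedited A20 parental line and a second clone for each exon, E6.2 and E7.2, giving 5 lines and 15 libraries. The 6 libraries of E6.1 and E7.1 held 30194829 to 39181530 counted read pairs each (26328054 to 39181530 over all 15), and the labels give the 3 libraries of a line as separate passages. All 13904 genes with enough counts, of 41388 listed, entered the comparison.

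*Foxp1* encodes a forkhead transcription factor that mostly represses its targets, and it is needed for early B-cell development. In diffuse large B-cell lymphoma its abundance, and that of shorter proteins made from internal start sites, has been linked to outcome and to lower expression of antigen-presentation genes. The forkhead domain lies well downstream of exons 6 and 7, so a frameshift in either exon removes it from any protein that starts upstream. The sequences of both exons are shown because the clones are named for them and because only 1 of them holds start codons. They are the genome sequence (GRCm38), read on the minus strand for transcript Foxp1-204 of the GENCODE annotation, with every in-frame ATG in capitals. Exon 6 (chr6:99016528-99016665, coding, 138 bases) and exon 7 (chr6:99015424-99015510, coding, 87 bases) read 5′ to 3′:
Exon 6: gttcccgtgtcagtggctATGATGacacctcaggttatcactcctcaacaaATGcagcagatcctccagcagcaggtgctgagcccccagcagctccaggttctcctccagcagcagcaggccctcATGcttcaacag
Exon 7: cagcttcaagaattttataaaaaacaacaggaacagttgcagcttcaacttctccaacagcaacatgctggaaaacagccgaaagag
Exon 6 held 4 in-frame ATG codons and exon 7 held 0. The lengths of both are multiples of 3, so skipping either exon would keep the reading frame.

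Levels below are CPM, a gene's count scaled to the size of its library, normalized between libraries by the trimmed mean of M values (TMM). Differences are log2 fold changes of E7.1 over E6.1 with their standard errors, and each adjusted p comes from edgeR's quasi-likelihood test across all genes with Benjamini-Hochberg adjustment. Genes with an adjusted p under 0.05 are called below, whatever their fold change. With 3 libraries against 3, a permutation test of a single gene could not go below 0.1, so no such test is given. The p values measure only the spread between passages within a line, estimated over all lines together. They do not measure how much independent clones of the same exon differ. Expression of all 8 B-cell markers was detected in the 6 libraries, at a summed 2340 to 2440 CPM in E6.1 and 2270 to 2840 CPM in E7.1. The T-cell markers summed to 2.95 to 4.47 CPM, with *Cd3d*, *Cd3e*, *Cd3g* and *Cd8a* at 0 in all 6 libraries. Libraries of other lines stood apart in a principal component plot (replicates 1 and 3 of E6.2 and replicate 3 of E7.2), and because all lines shared 1 estimate of the spread, they bear on the number of calls given below.

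*Foxp1* (ENSMUSG00000030067, chr6:98925338-99522721) was itself lower in E7.1 than in E6.1. E6.1 libraries held 103, 99.5 and 109 CPM and E7.1 libraries 41.7, 64.2 and 64.3 CPM, against 102, 166 and 147 CPM in parental cells. Every E7.1 library lay below every E6.1 library, and E6.1 replicate 1 was close to the lowest parental library. The log2 fold change was -0.87 (SE 0.20, adjusted p = 0.0346), a 1.83-fold difference. Each of the 6 fits that left out 1 library ended the call, with adjusted p values of 0.0559 to 0.163, and so did the length and GC offset (0.0564). Against parental cells the difference was -1.28 (adjusted p = 0.00688) for E7.1 and -0.41 (adjusted p = 0.765) for E6.1, and these comparisons share the parental libraries. In the second pair of clones, E6.2 libraries held 109, 104 and 105 CPM and E7.2 libraries 37.1, 39.6 and 52.4 CPM, a log2 fold change of -1.3 (adjusted p = 0.00258). The test of the difference between the pairs gave an adjusted p of 0.707. Of the 5 Foxp and Foxo genes tested, *Foxp1* was the only member called, and *Foxo1*, whose protein drives growth arrest genes, was at 165 to 184 CPM in E6.1 and 151 to 164 CPM in E7.1. Exons of *Foxp1* overlap those of *Gm20696*, and read pairs on both were not counted.

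**Figure D1:**
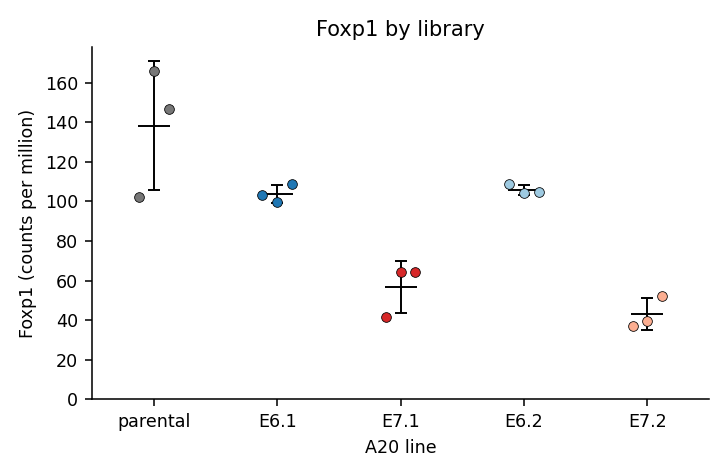
*Foxp1* level (TMM-normalized CPM, y axis) in each library of the 5 lines (x axis). Points are libraries and bars are the mean with the SD of 3 libraries. All E7.1 libraries (41.7 to 64.3 CPM) sit below all E6.1 libraries (99.5 to 109 CPM), and E7.2 sits below E6.2 in the same way.

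In all, 450 genes were deregulated between the clones, 3.24% of those tested. In E7.1, 220 genes were higher (1.58%) and 230 were lower (1.65%) than in E6.1. The median log2 fold change was 1.09 over the higher genes and -1.14 over the lower genes, against -0.02 over all genes tested. At least a 2-fold difference was seen for 125 of the higher and 136 of the lower genes, and at least a 16-fold difference for 14 and 26. The 3 libraries of each clone did not overlap for 446 of the 450 called genes, while the same held for 6004 genes in all (43.2%). Before adjustment, 3101 genes had a p under 0.05. The count was larger when the 6 libraries were fitted alone, without the spread of the other lines: 3017 of 13064 genes were then called (23.1%), 1558 higher and 1459 lower, and these held 442 of the 450.

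Few of these calls survived the loss of any 1 library. Of the 450 genes, 265 were still called without E6.1 replicate 2, and 145 without E7.1 replicate 2. Only 67 were called without E6.1 replicate 1, 62 without E6.1 replicate 3, 78 without E7.1 replicate 1 and 70 without E7.1 replicate 3. In all 6 such fits 53 genes were called, 30 higher and 23 lower in E7.1. They are mostly large differences, with 47 of 53 at 2-fold or more and 20 at 16-fold or more. By contrast, 162 of the 450 genes were called in none of the 6 fits.

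The libraries within a line were ordered alike over many called genes. E6.1 replicate 2 was the E6.1 library nearest to E7.1 for 351 of 448 called genes without ties (78.3%), against 58.1% of all tested genes. E7.1 replicate 1 was the E7.1 library furthest from E6.1 for 306 of 440 (69.5%, against 51.5%). Among parental libraries, replicate 1 was furthest in the E7.1 direction for 374 of 447 (83.7%, against 62.2%). The part of this ordering in the calls was not tested.

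In the second pair, E7.2 against E6.2, 312 genes were called (2.24%), 211 higher and 101 lower. The pairs share no library. Of the 450 genes called between E7.1 and E6.1, 33 were called in the same direction in both pairs, which is 7.33% of the first list and 10.6% of the second, and 7 of the higher and 10 of the lower genes were called in the opposite direction. The sign of the change was shared by 76.0% of the 450 genes and by 66.8% of all tested genes. For 143 genes (1.03%) the change differed between the pairs by the test of that difference. Against parental cells, 45 genes were called in E6.1 (0.324%) and 169 in E7.1 (1.22%).

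**Figure D2:**
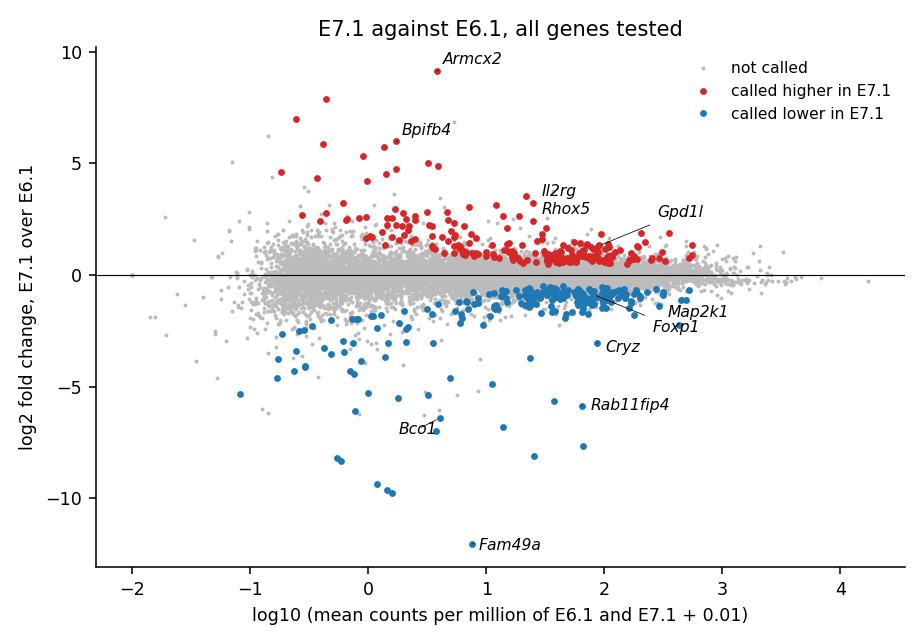
Log2 fold change of E7.1 over E6.1 (y axis) against the log10 of the mean CPM (x axis) for the 13904 genes tested. Coloured points are the 220 genes called higher and the 230 called lower in E7.1, and the genes with changes of 16-fold or more lie mainly at low levels.

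The largest differences were genes read in 1 clone and near 0 in the other. *Armcx2* (chrX:134804145-134809221), an X-linked armadillo repeat gene, had 0, 0.0327 and 0 CPM in E6.1 and 6.45, 8.38 and 7.88 CPM in E7.1. Only 1 read pair was counted on it over the 3 E6.1 libraries and 833 over the 3 E7.1 libraries, a ratio of 773 (exact 95% interval 138 to 30600, counting error only). Parental libraries held 23.8, 21 and 23.9 CPM and both other clones 12.4 to 14.3 CPM (E7.2) and 16.3 to 24.9 CPM (E6.2), so E6.1 was the line in which it was near 0. The reverse was seen for *Fam49a* (chr12:12262139-12376359), whose protein binds Rac1 and restrains actin remodelling. It had 14.4, 15.9 and 15.2 CPM in E6.1 and a count of 0 in all 3 E7.1 libraries, at least 185-fold lower in E7.1 when a floor of 3 counts per library is used. *Fam49a* was at 6.71, 6.49 and 7.72 CPM in parental cells. Both genes had an adjusted p of 3.88e-08, and both remained called in each of the 6 leave-one-out fits.

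Other genes were near 0 in E6.1 and read in E7.1. *Nav2*, a neuron navigator gene, had 0.127, 0.36 and 0.1 CPM in E6.1 and 4.95, 7.15 and 6.53 CPM in E7.1, a log2 fold change of 5.0 (adjusted p = 0.000487). *Stom*, which encodes the membrane protein stomatin, went from 0.0952, 0.458 and 0.2 to 7.87, 6.74 and 7.76 CPM (log2 fold change 4.89, adjusted p = 0.00268). *Cyp2c55*, a cytochrome P450 gene, went from 0.0952, 0.196 and 0.0751 to 2.84, 3.96 and 3.1 CPM (log2 fold change 4.75, adjusted p = 1.52e-05). For each of the 3 genes, all E7.1 libraries were above all E6.1 libraries, which the rule that chose them required. *Cyp2c55* was at 1.31 to 2.72 CPM in parental cells, whereas *Nav2* and *Stom* were highest in E7.1 among the 5 lines. *Stom* had means of 0.307 CPM in E6.2, 0.718 CPM in E7.2 and 2.06 CPM in parental cells. Other genes had few counts in E6.1. *Lpar5*, a receptor for lysophosphatidic acid, had 4 counts there and 190 in E7.1 (ratio 44.1, interval 16.9 to 163). *Bpifb4*, of the BPI fold family, had 5 and 371 (ratio 68.8, interval 29.2 to 213). Its mean was also low in E6.2 (0.0262 CPM), E7.2 (0.0176 CPM) and parental cells (0.396 CPM), so E7.1 was the line that stood apart. *Krt222*, a keratin gene, was 18.2-fold higher in E7.1 than in E6.1 and lower in E7.2 than in E6.2 (log2 fold change -1.55, adjusted p = 0.0398).

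In the other direction, 7 called genes had 0 counts in all E7.1 libraries, 6 of them at a mean of 1 CPM or more in E6.1. Besides *Fam49a* these 6 were *Colq* (at least 34.9-fold), the collagen tail subunit of acetylcholinesterase, *Cfap126* (at least 28.6-fold), a cilium gene, *Gm13715* (at least 38.2-fold), *Gm21850* (at least 14.0-fold) and *Tinag* (at least 13.0-fold). The predicted genes *Gm13715* and *Gm21850* had 0 counts in the parental line, E6.2 and E7.2 as well, so E6.1 was the only line in which they were read. The calls of *Gm21850* and *Tinag* were kept in 2 and 1 of the 6 leave-one-out fits. *Zfp941*, a zinc finger gene, had 7.04, 8.14 and 7.18 CPM in E6.1 and 0.161, 0 and 0 CPM in E7.1 (log2 fold change -7.01, adjusted p = 5.01e-05). The non-coding *Lncenc1* had 153 counts in E6.1 and 2 in E7.1 (ratio 82.5, interval 22.4 to 687), and was called in 1 of the 6 leave-one-out fits. *Gm28935* and *Stc1*, the latter a stanniocalcin gene, were higher in E7.1 with every leave-one-out fit ending the call.

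Among genes with a mean of 20 CPM or more in these clones, *Il2rg* rose by most of those called in every leave-one-out fit. It encodes the common gamma chain shared by several interleukin receptors. *Il2rg* (chrX:101264378-101268255) had 4.09, 5.3 and 5 CPM in E6.1 and 48.3, 48.4 and 39.4 CPM in E7.1, against 10.9, 9.29 and 11.1 CPM in parental cells. E7.1 was thus above and E6.1 below every parental library. The log2 fold change was 3.24 (SE 0.27, adjusted p = 1.52e-05), or 9.44-fold. E7.2 was also above E6.2 (log2 fold change 1.45, adjusted p = 0.00952), but by less, with an adjusted p of 0.0271 for the difference between the pairs. *Rhox5*, an X-linked homeobox gene, had 6.03, 8.67 and 8.68 CPM in E6.1 and 50.6, 40.7 and 34.7 CPM in E7.1, a log2 fold change of 2.43 (SE 0.21, adjusted p = 1.73e-05). Parental libraries held 39.9 to 47.8 CPM of *Rhox5*, within the E7.1 range. E7.2 was above E6.2 there too (log2 fold change 1.8, adjusted p = 0.000212), with both other clones below the parental line at 2.87 to 4.38 and 10.6 to 14.1 CPM.

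Several abundant transcripts were raised in E6.1 alone. *Rab11fip4* (chr11:79591212-79698023), an effector of the recycling GTPase Rab11, had 115, 136 and 129.6 CPM in E6.1 and 1.26, 2.73 and 2.6 CPM in E7.1. The other 3 lines held 1.63 to 3.52 CPM, so E7.1 was at the level of the unedited cells. The difference was 57.8-fold (log2 fold change -5.85, SE 0.30, adjusted p = 6.65e-08). *Map2k1* (chr9:64185770-64253631), the kinase Mek1 that activates Erk, had 402, 412 and 445 CPM in E6.1 and 158, 165 and 163 CPM in E7.1, with 164 to 186 CPM in parental cells. It was 2.58-fold lower in E7.1 (log2 fold change -1.37, adjusted p = 0.000255). Others were lower in E7.1 than in the other lines. *Adcy7*, an adenylyl cyclase gene, had 34, 41.6 and 37.4 CPM in E6.1 and 15.2, 14.3 and 16.8 CPM in E7.1. *Tnfrsf26*, a receptor of the tumour necrosis factor family, had 59.7, 54.5 and 60.5 CPM in E6.1 and 30.5, 32.2 and 31.6 CPM in E7.1. They were 2.44-fold (log2 fold change -1.29, adjusted p = 0.000524) and 1.85-fold (log2 fold change -0.89, adjusted p = 0.00119) lower in E7.1. These 4 calls held in each leave-one-out fit, and for each gene the difference between the pairs was called as well.

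A further set of genes was low in E7.1 and in E6.2 and high in E6.1 and in E7.2, so that the edited exon did not order the clones. *Cryz* (chr3:154596711-154623182), the quinone oxidoreductase zeta-crystallin, had 150.5, 161 and 153 CPM in E6.1 and 13.2, 21.3 and 21 CPM in E7.1. In the second pair it had 15.3, 19.1 and 16.7 CPM in E6.2 and 181, 191 and 289 CPM in E7.2, and parental cells lay between these levels at 87.4 to 94 CPM. *Brms1l* and *Sap30*, which encode subunits of the Sin3 histone deacetylase complexes, followed the same order. *Brms1l* had 116, 159 and 146 CPM in E6.1, 51.6, 48.6 and 49.7 in E7.1, 44.7, 46.8 and 61.1 in E6.2 and 147, 139.9 and 158 in E7.2. *Sap30* had 106, 103 and 111 CPM in E6.1, 48.4, 45.8 and 41.2 in E7.1, 24.8, 36.2 and 38 in E6.2 and 94.7, 88.3 and 108 in E7.2. *Bco1*, which encodes the enzyme that cleaves beta-carotene, was near 0 in E7.1 (0 to 0.179 CPM) and E6.2 (0.0907 to 0.236 CPM) and at 7.29 to 8.66 CPM in E6.1 and 6.6 to 8.18 CPM in E7.2. For these 4 genes the log2 fold change was -3.07, -1.49, -1.24 and -6.4 in the first pair and 3.69, 1.54, 1.55 and 5.44 in the second, each called in its own pair. The linker histone gene *H1fx* and the interleukin receptor gene *Il22ra1*, named after their values were seen, showed it too, with log2 fold changes of -5.5 and -4.86 in the first pair and 8.03 and 4.85 in the second. The opposite order was seen for *Fgfr1op*, a centrosome gene, with 46.2, 40.1 and 47.4 CPM in E6.1, 97.7, 81 and 83 in E7.1, 85.5, 106 and 114 in E6.2 and 39.4, 36.6 and 46.4 in E7.2. In all, 10 of the 53 genes called in every leave-one-out fit were called in opposite directions in the pairs, and 5 in the same direction.

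**Figure D3:**
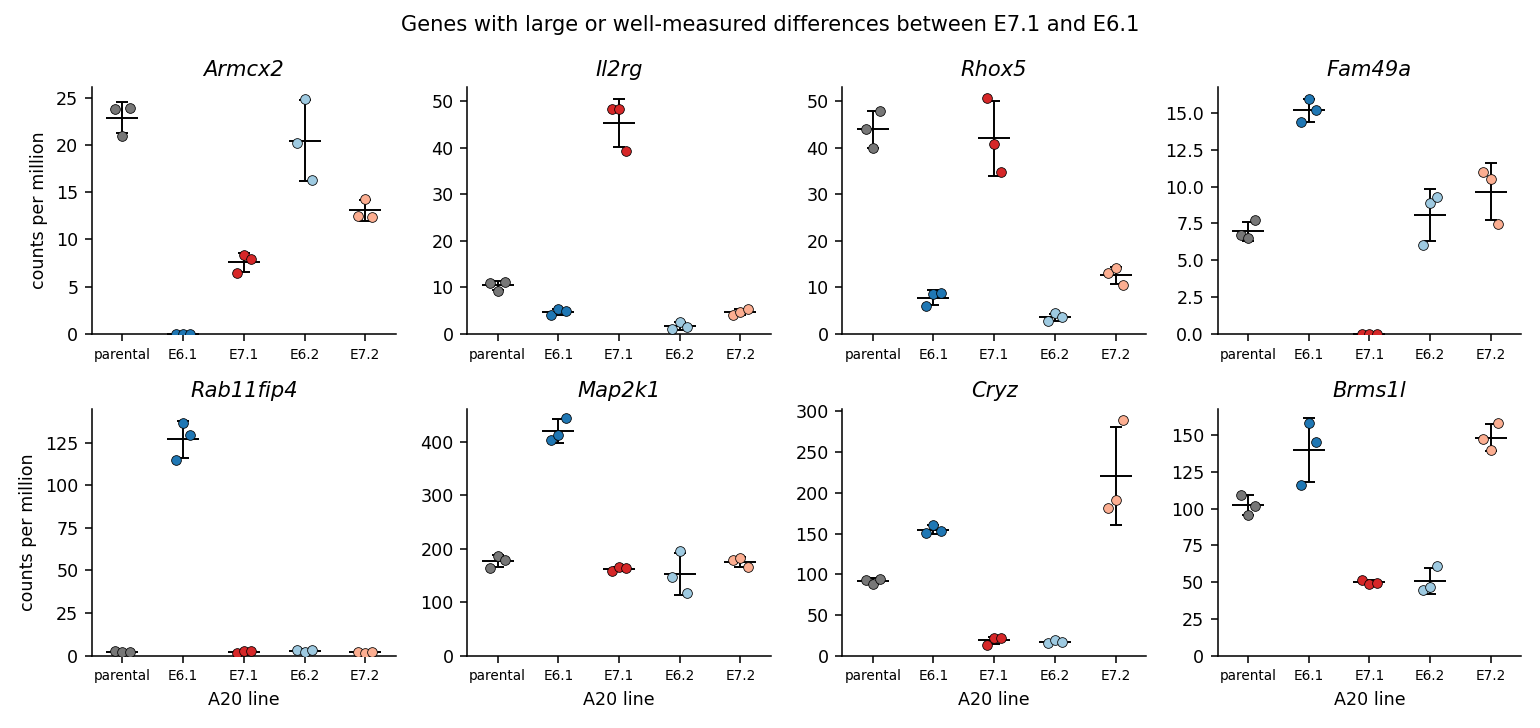
Level (TMM-normalized CPM, y axis, starting at 0 in each panel) of *Armcx2*, *Il2rg*, *Rhox5*, *Fam49a*, *Rab11fip4*, *Map2k1*, *Cryz* and *Brms1l* by line (x axis). Points are libraries, bars the mean with the SD of 3 libraries. *Rab11fip4* and *Map2k1* are high in E6.1 only, whereas *Cryz* and *Brms1l* are low in both E7.1 and E6.2.

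Neighbouring genes differed together on chromosome 9. Between *Pdcd6ip* and *Gpd1l* on chromosome 9 (chr9:113651744-114933987, 1282.2 kb) 13 of the 24 listed genes were tested. Of these, 9 were called higher in E7.1 and 0 lower (1.58% and 1.65% over all genes). The log2 fold change was positive for all 13 (48.5% over all genes). The median over the 13 genes was 0.84. Of 11094 windows of 10 consecutive genes over the genome, the one beginning at *Pdcd6ip* had the median furthest from 0 (0.875), so the segment was chosen with such values known, and the run of genes itself was not tested. The next window, on chromosome 10 from *Specc1l* to *Derl3*, had a median of 0.861 with 3 genes called, and a median of 0.938 in the second pair. In the chromosome 9 segment the corresponding median in the second pair was 0.07 over the 11 genes at 5 CPM or more, although *Gpd1l* was called higher there too, at a log2 fold change of 0.58 (adjusted p = 0.0495). The adjusted p of the difference between the pairs was 0.158 for *Gpd1l*. Over whole chromosomes the medians ran from -0.0681 to 0.0612.

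The segment differed from parental cells in E6.1. Relative to the parental mean, the geometric mean of the 11 genes was 0.523, 0.541 and 0.522 in the E6.1 libraries and 1.035, 0.963 and 0.982 in the E7.1 libraries. It was 0.89 to 1.056 in E6.2, 1.022 to 1.098 in E7.2 and 0.967 to 1.014 in the parental libraries themselves. The E6.1 libraries were thus the lowest of all 15 and close to one another. *Pdcd6ip*, which encodes the ESCRT-associated protein Alix, had 57.8, 72.2 and 62.4 CPM in E6.1 and 166, 146 and 152 CPM in E7.1, a log2 fold change of 1.27 (SE 0.16, adjusted p = 0.000487). *Gpd1l*, at the other end, related to glycerol phosphate dehydrogenase, had 45.6, 60.7 and 47.6 CPM in E6.1 and 135, 116 and 127 CPM in E7.1 (log2 fold change 1.3, SE 0.15, adjusted p = 0.000223). Between them, *Clasp2*, which stabilises microtubules, had 79.8, 77.3 and 73 CPM in E6.1 and 127, 140.3 and 143 CPM in E7.1 (log2 fold change 0.84, adjusted p = 0.00271). *Dync1li1*, a dynein subunit gene, had a log2 fold change of 0.84 (adjusted p = 0.00392), and *Cmtm6*, whose protein holds PD-L1 at the cell surface, 0.91 (adjusted p = 0.00381). *Crtap* (log2 0.8), *Tmppe* (log2 1.43), *Cnot10* (log2 0.66) and *Ubp1* (log2 0.63) were also called. *Fbxl2*, *4930520O04Rik*, *Glb1* and *Cmtm7* were not, with log2 fold changes of 1.22, 0.24, 0.96 and 0.39. Calls of 7 of the 9 genes held in each leave-one-out fit, while that of *Ubp1* held in 0 and that of *Cnot10* in 2 of 6. *Ubp1* overlaps *Fbxl2*, and *Tmppe* overlaps *Glb1*, so their counts are uncertain. The 5 nearest expressed genes on either side had medians of 0.036 before *Pdcd6ip* and -0.41 after *Gpd1l*, and none was called.

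**Figure D4:**
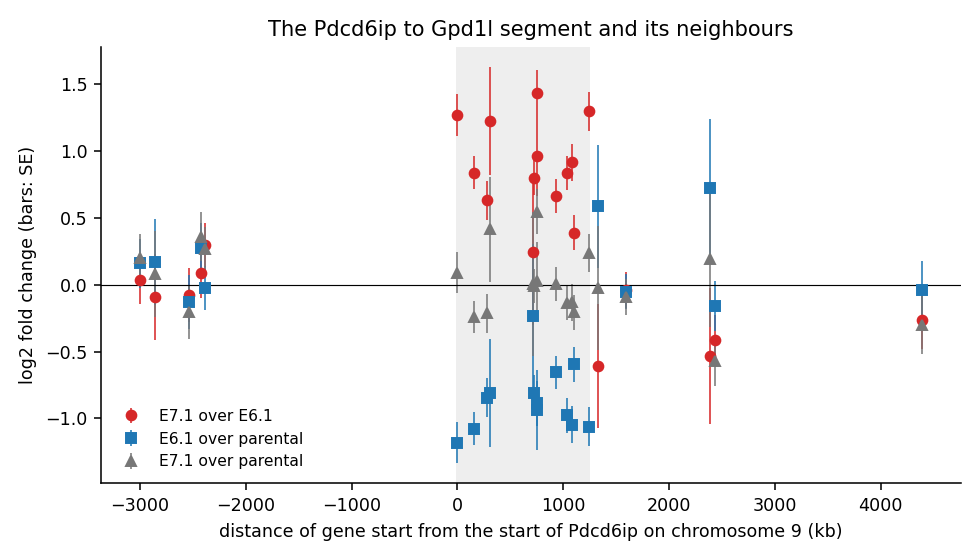
Log2 fold change with its standard error (y axis) against the distance in kb from the start of *Pdcd6ip* (x axis) for genes in and beside the chromosome 9 segment (grey), in E7.1 over E6.1, E6.1 over parental cells and E7.1 over parental cells. The median over the 11 genes at 5 CPM or more is -0.94 in E6.1 over parental cells and close to 0 (-0.0091) in E7.1 over parental cells.

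Some enzymes of sterol synthesis and of glycolysis were called higher in E7.1. Cholesterol is built from acetyl-CoA through the mevalonate pathway under Srebf2, and oxysterol-activated Nr1h3 (Lxr alpha) opposes this by raising efflux genes. Of 29 genes tested in the cholesterol list, 4 were called higher and 3 lower (1.58% and 1.65% over all genes), 25 had a positive log2 fold change (6741 of 13904 over all genes), and the median was 0.82 (all genes -0.02). *Hmgcs1*, which makes HMG-CoA, had 108, 213 and 125 CPM in E6.1 and 684, 447 and 526 CPM in E7.1, with 513, 137 and 146 CPM in parental cells (log2 fold change 1.89, SE 0.45, adjusted p = 0.0398). E6.1 replicate 2 was the highest E6.1 library and parental replicate 1 stood with the E7.1 libraries. *Sqle* (log2 fold change 1.3, adjusted p = 0.0481) and *Hsd17b7* (log2 fold change 1.63, adjusted p = 0.044), which act on squalene and later sterols, were also called higher. The 3 members that were lower do not make sterols. *Abcg1*, a cholesterol exporter, had 20.7, 9.09 and 16.7 CPM in E6.1 and 4.1, 2.48 and 3.16 CPM in E7.1 (log2 fold change -2.25, adjusted p = 0.0481). *Nr1h3* itself (log2 fold change -1.99, adjusted p = 0.0173) and *Soat1* (log2 fold change -0.7, adjusted p = 0.0278), which esterifies cholesterol, were the others. *Abcg1* and *Nr1h3* were also called lower in E7.2 than in E6.2, at -2.69 and -1.95. The median of the list stayed between 0.64 and 1.07 in the 6 leave-one-out fits, but 0, 5 and 0 members were called without E6.1 replicates 1, 2 and 3 in turn, and 0, 0 and 0 without E7.1 replicates 1, 2 and 3. In the second pair the median was 0.63.

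Of 24 glycolysis and pyruvate genes tested, 6 were called higher and 0 lower (1.58% and 1.65% over all genes). The log2 fold change was positive for 21 (48.5% over all genes), and the median was 0.59. *Ldha*, which reduces pyruvate to lactate, had 258, 391 and 285 CPM in E6.1 and 1115, 566 and 706 CPM in E7.1, with 392, 222 and 216 CPM in parental cells (log2 fold change 1.35, SE 0.33, adjusted p = 0.0459). *Pfkl*, a subunit of the committing phosphofructokinase, had 21.3, 39.3 and 25.4 CPM in E6.1 and 95.5, 68.1 and 79.2 CPM in E7.1 (log2 fold change 1.5, SE 0.31, adjusted p = 0.0232), and was called in the second pair too (1.44). For both genes each E7.1 library exceeded each E6.1 library, and the clones did not overlap for 446 of all 450 called genes. *Tpi1* (log2 1.27), *Hk1* (log2 0.95), *Pgam1* (log2 0.9) and *Eno1* (log2 0.74) were also called, with adjusted p values between 0.0324 and 0.0483. Summed over the list, E6.1 libraries held 3557, 4161 and 3610.0 CPM, E7.1 libraries 6775, 5797 and 5749 CPM and parental libraries 4359, 3219 and 3182 CPM. When each library was left out in turn the median was 0.54 to 0.74, but 0, 2 and 0 members were called without E6.1 replicates 1, 2 and 3 in turn, and 0, 2 and 0 without E7.1 replicates 1, 2 and 3. *Gapdh* is in the list at 4.03 to 6.82 CPM in E6.1 and 7.93 to 15.3 CPM in E7.1, a level that is uncertain because read pairs matching its many near-identical copies were not counted. The Gapdh-like predicted gene *Gm10282* had 2.73, 4.74 and 2.93 CPM in E6.1 and 7.23, 53.6 and 58.2 CPM in E7.1, with 1 E7.1 library close to E6.1, and was called in 1 of the 6 leave-one-out fits.

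Over the 13 called genes of the cholesterol and glycolysis lists, the same libraries were extreme as over all called genes. Parental replicate 1 was furthest in the E7.1 direction for 12 of them, E6.1 replicate 2 for 12 and E7.1 replicate 1 for 9. Their part in the result was not tested.

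In the pentose phosphate pathway, which supplies NADPH, *G6pdx* (log2 fold change 1.0, adjusted p = 0.0451) and *Pgd* (log2 fold change 1.16, adjusted p = 0.029) of its oxidative arm were higher in E7.1, 2 of 7 genes tested (median 0.39). In the list of glutathione, thioredoxin and Nrf2 target genes 3 of 22 were called higher and 0 lower, with a median of 0.49. For both lists, the shares over all genes tested were 1.58% higher and 1.65% lower. *Hmox1*, which degrades heme, had 121, 126 and 108 CPM in E6.1 and 519, 234 and 221 CPM in E7.1 (log2 fold change 1.46, SE 0.26, adjusted p = 0.0112). All E7.1 libraries were above E6.1, replicate 1 by most, and the clones did not overlap for 446 of all 450 called genes. *Txnrd1*, a thioredoxin reductase gene (log2 fold change 0.86, adjusted p = 0.0399), and *Gclm*, of glutathione synthesis (log2 fold change 0.62, adjusted p = 0.0491), were the other members. None of the 3 was called in the second pair, and the difference between the pairs was called only for *Hmox1*. Without E6.1 replicates 1, 2 and 3 and E7.1 replicates 1, 2 and 3 in turn, the adjusted p ranged over 0.00429 to 0.0852 for *Hmox1*, 0.0539 to 0.214 for *Txnrd1*, 0.0756 to 0.216 for *Gclm*, 0.0543 to 0.222 for *G6pdx* and 0.033 to 0.166 for *Pgd*. In the edgeR fit of all 15 libraries, 0 of 81 nuclear-encoded respiratory chain subunits were called (median 0.23, 62 positive), with 19 higher and 1 lower at an unadjusted p under 0.05. DESeq2 called 10 higher, the likelihood ratio test 2 higher and the 6 libraries alone 23 higher and 2 lower. Over all genes, 3101 of 13904 had an unadjusted p under 0.05 in either direction. DESeq2 called 837 of all genes higher and 674 lower, and the likelihood ratio test 525 and 539. The 6 libraries alone called 1558 higher and 1459 lower of 13064 genes. Of 13 transcripts of the mitochondrial genome 0 were called by edgeR in either fit, at an unadjusted p under 0.05 or by DESeq2 (median 0.34). The sign of that median rested on single libraries, being -0.11 without E6.1 replicate 1 and -0.16 without E7.1 replicate 1. Leaving out any other library of the clones gave 0.40 to 0.80. Of 22 Atf4 targets and serine synthesis genes edgeR called 0, with 9 lower at an unadjusted p under 0.05, 2 lower by DESeq2 and 5 lower with the 6 libraries alone (median -0.50).

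Antigen-presentation and B-lineage genes held 2 calls. For MHC class II, the antigen-presentation genes at the centre of the study, edgeR called 0 of 20 genes in the fit of all 15 libraries (3.24% over all genes), and the median was 0.20. At an unadjusted p under 0.05 there were 2 higher, by DESeq2 1, by edgeR's likelihood ratio test 1 and in the fit of the 6 libraries alone 5, against 23.1% of all genes called in that last fit. Over all genes, 3101 of 13904 had an unadjusted p under 0.05 in either direction, and DESeq2 called 837 higher. *H2-Aa* had 685, 741 and 682 CPM in E6.1 and 788, 906 and 720.5 CPM in E7.1, and *H2-Eb1* 119, 154 and 119.9 CPM in E6.1 and 192, 219.5 and 171 CPM in E7.1. The log2 fold changes were 0.2 (adjusted p = 0.714) and 0.57 (adjusted p = 0.31), and of these 2 genes the clones overlapped for *H2-Aa*. *Ciita*, the master activator of the class, was at 76.6 to 80.2 CPM in E6.1 and 69 to 74.4 CPM in E7.1, and *Cd74*, the invariant chain, at -0.01 (adjusted p = 0.979). Among 17 class I genes (median 0.27), *Psmb10*, an immunoproteasome subunit, was higher (log2 fold change 0.86, adjusted p = 0.0278). Of 19 B-lineage transcription factors 1 was lower (median 0.22). *Bach2*, which restrains plasma cell differentiation, had 121, 99.4 and 114 CPM in E6.1, 26.6, 33.9 and 38 in E7.1 and 41.5, 131 and 116 in parental cells (log2 fold change -1.76, SE 0.37, adjusted p = 0.0237), with parental replicate 1 close to the E7.1 level.

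Of 24 B-cell receptor signalling genes 2 were higher, 1 was lower and the median was 0.18. For this and the next lists, the shares over all genes tested were 1.58% higher and 1.65% lower. The phosphatase genes *Inpp5d* (Ship1) and *Ptpn6* (Shp1) were higher in E7.1 at 0.82 (adjusted p = 0.042) and 1.03 (adjusted p = 0.0497), and *Fyn*, a Src-family kinase gene, was lower (log2 fold change -0.75, adjusted p = 0.0465). The call of *Ptpn6* was also lost with the replicate block and with the length and GC offset. The phosphatases were also called higher in E7.2 than in E6.2 (0.94 and 1.38). Of 21 surface and costimulatory genes 3 were higher and 2 lower, with a median of 0.02. *Tnfsf9*, the 4-1BB ligand, had 0.793, 0.85 and 0.675 CPM in E6.1 and 7.98, 4.8 and 3.7 CPM in E7.1 (log2 fold change 2.83, SE 0.46, adjusted p = 0.0059). *Tnfrsf13c*, the receptor for the survival factor Baff, had 17.8, 22.3 and 19.2 CPM in E6.1 and 55.2, 37.5 and 34.1 CPM in E7.1 (log2 fold change 1.09, SE 0.20, adjusted p = 0.0133). *Cd80*, a ligand of Cd28, had 2.7, 2.42 and 2.7 CPM in E6.1 and 0.134, 0.485 and 0.328 CPM in E7.1 (log2 fold change -3.03, SE 0.60, adjusted p = 0.0201). Clones did not overlap for any of these 3, as for 446 of all 450 called genes. *Cd24a* (higher, log2 1.03) and *S1pr1* (lower, log2 -1.71) were the remaining calls. Among 20 cytokine receptor and JAK-STAT genes (median -0.01), *Il2rg* rose and *Il9r* fell, the latter from 763, 550.4 and 725 CPM in E6.1 to 269.6, 313 and 343 CPM in E7.1 (log2 fold change -1.14, adjusted p = 0.0421). Of 20 interferon-stimulated genes the edgeR fit of all 15 libraries and DESeq2 called 0, with 4 lower at an unadjusted p under 0.05 and 4 lower in the edgeR fit of the 6 libraries alone (median -0.14). Over all genes, 3101 of 13904 had such an unadjusted p in either direction, and the 6 libraries alone called 1459 of 13064 lower. Of 24 immunoglobulin genes with enough counts, out of 255 listed (median -0.22), *Iglc2* (log2 -1.82) and *Iglv3* (log2 -0.95) were lower in E7.1, and their counts are uncertain where reads match several segments.

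Leave-one-out fits ended many of these immune calls. Leaving out 1 library at a time gave adjusted p values of 0.0417 to 0.136 for *Bach2*, 0.0412 to 0.214 for *Inpp5d*, 0.0458 to 0.236 for *Ptpn6*, 0.0791 to 0.199 for *Fyn*, 0.0158 to 0.0917 for *Tnfrsf13c*, 0.0405 to 0.114 for *Cd80*, 0.0467 to 0.219 for *Cd24a*, 0.0544 to 0.199 for *S1pr1*, 0.0492 to 0.205 for *Il9r*, 0.0334 to 0.173 for *Psmb10*, 0.0252 to 0.224 for *Iglc2* and 0.0291 to 0.0659 for *Iglv3*. The calls of *Tnfsf9* (0.00923 to 0.0566) held in 5 of the 6 fits, and those of *Il2rg* (7.5e-05 to 0.000243) in all.

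In a mixed list of growth arrest and FOXO target genes, the members that were called were lower in E7.1. Of 26 tested, 3 were called lower and 0 higher (1.65% and 1.58% over all genes). The log2 fold change was positive for 4 (48.5% over all genes), and the median was -0.58, against 0.13 in the second pair. *S1pr1*, a receptor that guides lymphocyte exit, had 50.5, 35.3 and 46.5 CPM in E6.1, 12.5, 13.8 and 14.1 in E7.1 and 19.6, 45.7 and 44.7 in parental cells (log2 fold change -1.71, SE 0.42, adjusted p = 0.044). *Zeb2*, a repressor gene, had 22.9, 12.1 and 17.7 CPM in E6.1 and 4.58, 6.97 and 6.59 CPM in E7.1 (log2 fold change -1.54, SE 0.29, adjusted p = 0.0169). *Klf9*, a Krüppel-like factor gene, had 15.1, 12.3 and 13.4 CPM in E6.1 and 5.97, 8.94 and 7.52 CPM in E7.1 (log2 fold change -0.86, SE 0.19, adjusted p = 0.0337). For the 3 genes all E7.1 libraries were lowest, and parental replicate 1 was the lowest parental library. Separation of E7.1 from E6.1 held for 446 of all 450 called genes. When each library was left out in turn, the median of the list was -0.68 to -0.38, but 0, 3 and 0 members were called without E6.1 replicates 1, 2 and 3 in turn, and 0, 2 and 0 without E7.1 replicates 1, 2 and 3. The forkhead core motif TGTTTAC (searched as TGTTTAC and GTAAACA, which are the 2 strands of 1 motif) was found in the promoter window of 12 of 167 genes called lower (7.19%) and 5 of 166 called higher (3.01%), against 288 of 9487 tested genes (3.04%) and 3.65% of all 32851 windows. Windows run from 250 bases before to 50 after the start (RefSeq, GRCm38.p6), and this is a description with no test. *Klf9* was the list member called lower with the motif, and the 4 windows of *Zeb2* held none. The *Klf9* window is shown, with the match in capitals, as an example of where the letters lie (chr19:23140976-23141275, plus strand):
Klf9: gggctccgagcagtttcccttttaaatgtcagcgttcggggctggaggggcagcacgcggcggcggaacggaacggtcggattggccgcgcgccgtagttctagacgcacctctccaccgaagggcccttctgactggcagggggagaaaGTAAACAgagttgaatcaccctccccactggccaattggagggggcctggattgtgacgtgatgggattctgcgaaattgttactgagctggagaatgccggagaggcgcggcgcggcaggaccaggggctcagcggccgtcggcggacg

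Regulators of growth and survival changed singly, where 1.58% of all genes tested were called higher and 1.65% lower. *Myc* had 121, 140.1 and 125 CPM in E6.1 and 166, 183 and 193 CPM in E7.1 (log2 fold change 0.49, SE 0.12, adjusted p = 0.0464), the only call among 11 genes of the Myc, Max and Mxd network (median 0.01). *Ccnd3*, the cyclin that germinal centre B cells rely on, had 32.6, 59.4 and 33.3 CPM in E6.1 and 162, 143 and 136 CPM in E7.1 (log2 fold change 1.81, SE 0.36, adjusted p = 0.0189), out of 20 cell-cycle entry genes (median 0.26). It was called higher in the second pair as well (1.52). *Bcl2l1*, which encodes the survival protein Bcl-xL, had 704, 481 and 627 CPM in E6.1 and 284, 274 and 286 CPM in E7.1 (log2 fold change -1.1, SE 0.25, adjusted p = 0.0344), the only call among 14 Bcl2 family genes (median -0.23). The E7.1 libraries lay wholly above those of E6.1 for *Myc* and *Ccnd3* and wholly below for *Bcl2l1*. Such separation held for 446 of all 450 called genes. Leaving out single libraries gave adjusted p values of 0.0571 to 0.232, 0.0198 to 0.12 and 0.04 to 0.193 for the 3 genes. *Rnf43* (log2 0.7), of 19 Wnt pathway genes (median 0.08), and the DNA methyltransferase gene *Dnmt3b* (log2 0.85), of 21 chromatin regulators (median 0.15), were higher, with adjusted p values of 0.0319 to 0.11 and 0.0357 to 0.175 over the same fits. Of 19 p53 targets edgeR called 0, with 1 higher and 6 lower at an unadjusted p under 0.05, 3 lower by DESeq2, and 1 higher and 4 lower with the 6 libraries alone (median -0.37). Over all genes, 3101 of 13904 had such an unadjusted p in either direction. DESeq2 called 674 of all genes lower and the 6 libraries alone 1459 of 13064.

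Factors that assemble ribosomes were higher where they were called. Among 49 ribosome biogenesis genes *Bop1* (log2 fold change 1.1, adjusted p = 0.018), *Tbl3* (log2 fold change 0.95, adjusted p = 0.0169), *Nop9* (log2 fold change 0.8, adjusted p = 0.0314), *Bms1* (log2 fold change 0.72, adjusted p = 0.0232) and *Urb2* (log2 fold change 0.59, adjusted p = 0.0237) were higher in E7.1 (1.58% over all genes) and 0 were lower (1.65%), with a median of 0.23. That list was drawn up in part from the study's own results on these samples, so it is not independent evidence of a direction, and 0, 3 and 0 members were called without E6.1 replicates 1, 2 and 3 in turn, and 0, 4 and 1 without E7.1 replicates 1, 2 and 3. By contrast, edgeR called 0 of 83 cytosolic ribosomal protein genes (median -0.21), with 1 higher and 1 lower at an unadjusted p under 0.05, 1 higher by DESeq2, and 2 higher and 1 lower with the 6 libraries alone. Over all genes, 3101 of 13904 had such an unadjusted p, and the 6 libraries alone called 23.1%. Of 76 mitochondrial ribosomal protein genes *Mrps21* (log2 0.93) and *Mrpl18* (log2 0.86) were higher and *Mrpl9* (log2 -0.98) lower (median -0.01). *Psmd12* (log2 0.71) was the 1 call among 31 proteasome subunits (median 0.12). Leave-one-out fits gave adjusted p values of 0.0458 to 0.196, 0.0557 to 0.222, 0.0458 to 0.174 and 0.0448 to 0.214 for these 4 genes. Over the 27 lists, 20 held a call, and 49 of their 716 different tested genes were called (6.84%, against 3.24% of all genes). The lists were chosen with results of these data known, so nothing is read from that share, and *Il2rg* was the only one of them called in every leave-one-out fit.

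**Figure D5:**
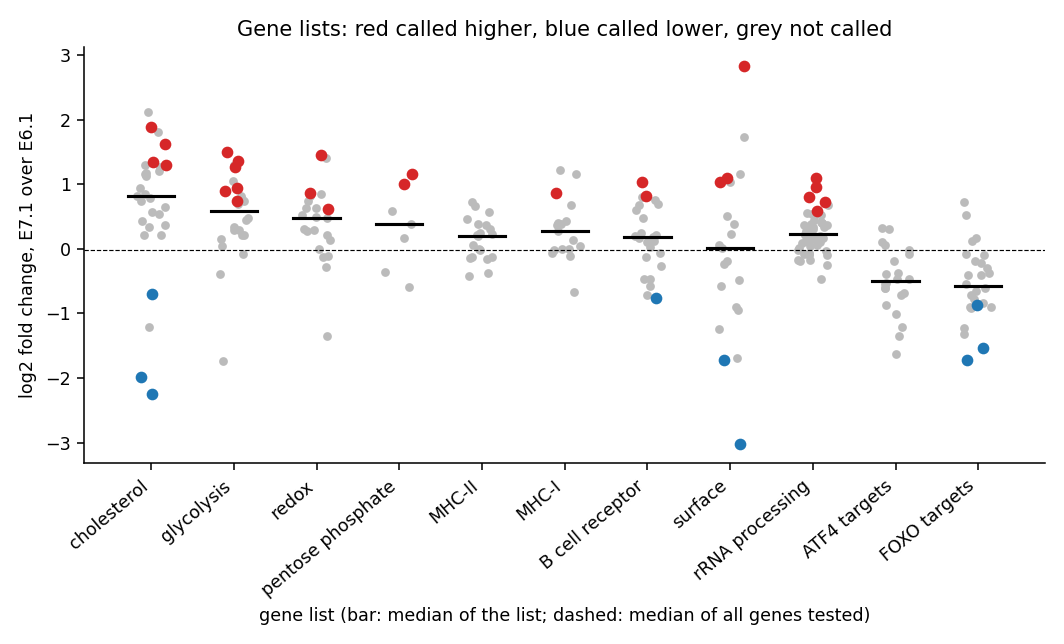
Log2 fold change of E7.1 over E6.1 (y axis) of the tested members of 11 gene lists (x axis). Each point is a gene, red where called higher and blue where called lower, the black bar is the list's median, and the dashed line is the median of all genes tested (-0.02). The cholesterol and glycolysis lists have the highest medians (0.82 and 0.59) and the list of growth arrest and FOXO target genes the lowest (-0.58).

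Genes that the study names are compared here between E7.1 and E6.1, not with parental cells. Between these clones *Phyhip*, *Lgr6*, *Meioc*, *Map1b*, *Ovgp1*, *Rhpn2*, *Nemp1*, *Nemp2* and *Iglv2* were not called. The study reports *Iglv2*, *Phyhip* and *Lgr6* as lower in its clones than in parental cells. Against parental cells each was called lower in both clones here. The log2 fold changes in E6.1 and E7.1 were -6.59 and -7.14 for *Iglv2*, -6.51 and -4.98 for *Phyhip* and -2.62 and -3.76 for *Lgr6*. The study checked *Map1b*, *Ovgp1*, *Rhpn2* and *Zfp804b* as possible off-target genes. *Map1b* had 0, 3 and 1 counts in E6.1 and 0, 1 and 1 in E7.1, too few to compare these clones. Against parental cells it was called lower in E7.1 (log2 fold change -4.95, adjusted p = 0.0398) but not in E6.1 (adjusted p = 0.126). *Ovgp1* and *Rhpn2* were called in neither clone against parental cells. In E7.2 against E6.2, *Map1b* (-7.98, adjusted p = 0.000992) and *Ovgp1* (-1.58, adjusted p = 0.00546) were called lower. *Ovgp1* was at 3.9, 3.11 and 4.3 CPM in E6.1 and 2.97, 2.27 and 2.27 CPM in E7.1, and *Iglv2* had 9, 5 and 5 counts in E6.1 and 2, 5 and 7 in E7.1. *Zfp804b* had a count of 0 in all 15 libraries. Finally, 4 called genes had overlapping clones, *Gm8226*, *Gm14414*, *Gm5559* and *Gm10420*, all predicted genes or pseudogenes. *Gm8226* had 391, 0.458 and 0.525 CPM in E6.1 and 0.964, 0.46 and 0.507 CPM in E7.1, so a single E6.1 library carried the difference, and the same held for 1 or 2 libraries in the others.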

How the data were processed

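RNA sequencing of 15 libraries from 5 A20 lines was analysed, and groups were taken from the labels. The authors deposited raw counts of read pairs per gene, made per the file headers with featureCounts 1.5.0 on a GRCm38 annotation. The submitters' processing notes also name HISAT, SAMtools and mm10. Counting ignored strand and dropped pairs that matched several places or genes, so counts of paralogs, pseudogenes and overlapping genes are uncertain. The 92 spike-ins had a count of 0, and 40254 of 41388 genes were matched to a symbol. No column of another sample was present. The floor of 3 counts was 0.0751 to 0.0981 CPM in the 6 libraries compared, and intervals and floors cover counting error only.

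Genes were filtered with filterByExpr, scaled with TMM and modelled over the 15 libraries, by line, in edgeR 4.0.16 (glmQLFit and glmQLFTest, R 4.3.3), and p values were adjusted over all genes within each contrast. E7.1 was compared with E6.1, E7.2 with E6.2, the pairs with each other, and both clones with parental cells. The members and gene lists were chosen with earlier results of these data known. The genes named were the 10 with the largest change in each direction among called genes whose clones did not overlap (mean of 1 CPM or more in the higher clone), the 8 of smallest p in each direction at a mean of 20 CPM or more, called list members, the genes of the chromosome 9 segment and genes the study names. Other genes, uncalled list members among them, were chosen after their values were seen, and some genes that the rule names are not reported here.

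In simulated data of 13904 genes with 200 changed between E7.1 and E6.1, 131 were recovered, including 82 of 92 changed 4-fold, 7 unchanged genes were called, and 0 were called in the other pair. Genes were drawn independently, with the same spread in all 15 libraries, no library standing apart and no change in the other pair. These figures describe that setting and not the real libraries. Alternatives were DESeq2 1.42.0, DESeq2 size factors, no filter, the likelihood ratio test, the newer quasi-likelihood method, the 6 libraries alone, a 2-fold threshold, a replicate block, a length and GC offset, both together and leaving out each library. One more fit, which dropped the replicate 3 libraries of both E6.2 and E7.2, was chosen after seeing the data.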

Additional observations from a re-analysis of the deposited data

Results flagged for a closer look

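For 143 genes the log2 fold change of E7.1 over E6.1 differed from that of E7.2 over E6.2, by the edgeR test of that difference at an adjusted p under 0.05. Groups of 3 libraries were not tested for single libraries that stand apart. Differences below are the first pair minus the second on the log2 scale. Where a clone is at or near 0 counts, the fitted value depends on the prior count and is no estimate of size.

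Among genes higher in E7.1 than in E6.1, the difference between the pairs was 9.78 for *Armcx2*, 5.74 for *Krt222*, 5.61 for *Cyp2c55*, 4.77 for *Lpar5*, 4.77 for *Nav2*, 2.29 for *Fgfr1op*, 1.79 for *Il2rg* and 1.68 for *Hmox1*. In the chromosome 9 segment it was 1.23 for *Tmppe*, 1.05 for *Pdcd6ip*, 1.03 for *Cmtm6*, 0.95 for *Ubp1*, 0.84 for *Dync1li1* and 0.78 for *Clasp2*. Among genes lower in E7.1 it was -12.29 for *Fam49a*, -11.84 for *Bco1*, -11.83 for *Colq*, -8.97 for *Cfap126*, -8.71 for *Lncenc1*, -7.18 for *Zfp941*, -6.76 for *Cryz* and -5.29 for *Rab11fip4*. Smaller differences were -3.03 for *Brms1l*, -2.79 for *Sap30*, -1.56 for *Map2k1*, -1.46 for *Adcy7*, -1.31 for *Iglv3* and -0.79 for *Tnfrsf26*.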

How the results depend on the processing

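The number of calls depended on how the spread was estimated. Against 220 genes higher and 230 lower in E7.1, DESeq2's Wald test called 837 and 674, edgeR's likelihood ratio test 525 and 539, and the 6 libraries alone 1558 and 1459. An added 2-fold threshold left 125 and 136. With the replicate 3 libraries of both E6.2 and E7.2 dropped, chosen after seeing the data, 1414 and 1134 were called, and the same fit gave 1397 and 1038 for E7.2 against E6.2 (211 and 101 otherwise) and 85 and 199 for the difference between the pairs (47 and 96 otherwise). DESeq2 gave 512 and 456 for the second pair and 113 and 205 for the difference. Leaving out 1 library of E6.1 or E7.1 gave 31 to 142 higher and 25 to 151 lower genes, the most without E6.1 replicate 2 (142 and 151). The cause was not tested, except that each such fit has fewer libraries.

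Counts stayed within 1.5 times with DESeq2's size factors (264 and 224), no filter (271 and 327), the newer quasi-likelihood method (259 and 267) and the length and GC offset (257 and 285). The replicate numbers did not pair the libraries of E6.1 and E7.1. Deviations of their same-numbered libraries correlated at -0.0274 to 0.0198 and of their other pairs at -0.0164 to 0.0402, and 2 of 6 libraries correlated best with their own number. For E6.2 and E7.2, libraries numbered 1, 2 and 3 correlated with their namesakes at 0.174, 0.276 and 0.426. Differently numbered libraries of E6.2 and E7.2 correlated at -0.366 to 0.311, so some shared spread went with the number there. A replicate block gave 173 and 243 calls, 349 of them among the 450, with 195 and 78 in the second pair and 43 and 103 for the difference. The replicate block with the offset gave 212 and 310. Of 204 named genes tested, 87 were called, and over the alternatives 2652 values kept their side of the threshold, 302 lost the call, 295 gained one and 0 reversed. Of 448 list medians 1 moved by more than the spread between libraries. *Gm21850* and *Tinag* had no adjusted p in DESeq2.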

Other observations

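Outside the gene lists, further genes called in every leave-one-out fit were chosen after their values were seen. *Tyro3*, a receptor tyrosine kinase gene of the Tam family, had 4.06, 6.74 and 4.68 CPM in E6.1 and 34.5, 30.2 and 32.5 CPM in E7.1, above every parental library (6.29 to 10.04 CPM). *Taf9b*, a gene of the general transcription machinery, had 6.69, 5.07 and 6.91 CPM in E6.1 and 0.214, 0.0766 and 0.149 CPM in E7.1, below every parental library (4.84 to 8.89 CPM). *Adgrl2*, an adhesion receptor gene, had 1.11, 2.19 and 0.976 CPM in E6.1 and 9.83, 7.15 and 6.89 CPM in E7.1. Among marker lists of other cell types, NK cell markers summed to 2.68 to 4.09 CPM in E6.1 and 0.616 to 1.07 CPM in E7.1, with *Klrb1c* the member called lower and *Ncr1*, *Gzma* and *Nkg7* at 0 in all 6 libraries. Myeloid markers summed to 1.78 to 2.68 and 1.85 to 5.64 CPM, erythroid markers to 0.55 to 0.634 and 0.509 to 0.715 CPM, stromal markers to 1.78 to 2.85 and 2.00 to 3.13 CPM (with *Pdgfrb* called lower, at 0.412, 0.622 and 0.55 CPM in E6.1 and 0, 0.0255 and 0.0597 CPM in E7.1), dendritic markers to 58.9 to 65.6 and 58.5 to 80.1 CPM and plasma cell markers to 1610 to 2090 and 1670 to 1820 CPM.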
